A study of Mus musculus with 9 samples.

Results

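The tumour necrosis factor (TNF) ligand and receptor superfamilies were described in cultured mouse group 2 innate lymphoid cells (ILC2s). Members were all genes whose symbol starts with Tnfsf or Tnfrsf, together with Tnf, Lta, Ltb, Ltbr, Cd40, Cd40lg, Cd27 and Cd70. This gave 39 of the 23234 genes listed, 16 of them ligands and 23 receptors. The cells were from wild-type mice of strain C57BL/6, out of clusters of lymphoid tissue in fat, and every culture held IL-33 at 10 ng/ml for 48 h. The 3 groups had 3 libraries each: IL-33 with IFN-γ at 10 ng/ml, IL-33 with IL-27 at 10 ng/ml, and IL-33 alone. They are called the IFN-γ, IL-27 and IL-33 libraries below. All groups share IL-33, so its own effect on the family was not measured here. Expression is given as FPKM, fragments per kilobase of transcript normalised to the number of mapped fragments, a scale on which genes of different length can be compared.

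Ligands of the TNF superfamily are mostly trimeric membrane proteins of immune cells, and proteases release some of them. Their receptors signal through TRAF adaptors to NF-κB or, where they carry a death domain, to caspases. Several receptors, such as GITR and DR3, are known to costimulate type 2 cytokine production by ILC2s, and OX40L on ILC2s is known to support T cells. IFN-γ and IL-27 are both known to restrain ILC2s.

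The libraries were shallow and alike in depth, at an estimated 888000 to 997000 fragments each, with FPKM sums of 628625 to 672534. Whether replicates came from separate mice or cultures is not given in the labels, and p-values therefore speak only for the spread of the 9 libraries, which may be technical in part. ILC2 markers were abundant, with Gata3 at 161 to 348 FPKM and Il1rl1, the IL-33 receptor, at 254 to 976 FPKM. Cd4, Pax5, Csf1r and Mertk, defining genes of T cells, B cells and macrophages, were at 0 in all 9 libraries. Other genes of those lists were found in every library. They were Cd3g (28.4 to 97.6 FPKM), Lat (45.1 to 109 FPKM), Cd79b (20.3 to 83.9 FPKM), Cd8b1 (1.51 to 7.15 FPKM) and Cd68 (1.16 to 18.9 FPKM, the highest in an IFN-γ library). Cd3e, another T cell gene, was at 0 in 3 libraries and reached 2.51 FPKM. The sum of the fibroblast genes stood apart in the replicate 3 library of each group: the 9 genes of that list summed to 86.5, 63.7 and 36.2 FPKM there, in the IFN-γ, IL-27 and IL-33 groups in that order, and to 3.10 to 17.6 FPKM in the other 6 libraries. The replicate 3 library of IL-33 alone also held more of the immediate early genes Fos (49.3 FPKM) and Egr1 (137 FPKM) than the other libraries did, a feature chosen after its values were seen. The part of these differences in the results below was not tested beyond the values given without those libraries.

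Among the ligands, the 3 genes with the highest means over the 9 libraries made up most of the summed level. These were Tnfsf10, which encodes TRAIL, an inducer of cell death, Ltb, which encodes lymphotoxin beta, the membrane partner of lymphotoxin alpha, and Tnfsf4, which encodes OX40L. Their means over the 9 libraries were 69.6 FPKM for Tnfsf10, 68.9 FPKM for Ltb and 49.3 FPKM for Tnfsf4. Together they took 84.2% ± 6.51 of the ligand sum in IFN-γ libraries, 82.1% ± 1.68 in IL-27 libraries and 75.5% ± 9.69 in IL-33 libraries (SD, n = 3 each). Tnfsf14, which encodes LIGHT, followed at 15.1 FPKM, and Tnf at 8.19 FPKM. Tnfsf11 (RANKL), Tnfsf9 (4-1BBL), Tnfsf8 (CD30L), Lta (lymphotoxin alpha) and Tnfsf12 (TWEAK) had means of 2.17 to 4.84 FPKM. Ltb held its rank among the first 3 through the IFN-γ and IL-27 libraries. In the IL-33 libraries it averaged 8.065 FPKM, below Tnfsf14 (8.94 FPKM) and Tnfsf11 (8.725 FPKM). The annotated exons of Tnfsf12 share 48.3% of their bases with those of BC096441, so its level is uncertain.

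The receptor sum was likewise carried by few genes. Tnfrsf18 (GITR) had a mean of 103 FPKM over the 9 libraries, Tnfrsf1b (TNFR2) 86.8 FPKM and Tnfrsf25 (DR3, the TL1A receptor) 68.5 FPKM. Tnfrsf8 (CD30) and Tnfrsf9 (4-1BB) had means of 47.3 and 44.4 FPKM. These 5 receptors took 69.2% ± 1.82 of the receptor sum in IFN-γ libraries, 78.0% ± 2.22 in IL-27 libraries and 81.4% ± 6.42 in IL-33 libraries (SD, n = 3 each). They were picked by the mean over all 9 libraries, so the order of these shares follows in part from the pick. In IFN-γ libraries Tnfrsf8 and Tnfrsf9 averaged 11.06 and 8.28 FPKM. Tnfrsf14 (27.85 FPKM), Tnfrsf10b (20.83 FPKM) and Cd27 (15.3 FPKM) were higher there. Tnfrsf1a, the other TNF receptor and the one with a death domain, had a mean of 2.35 FPKM, and Ltbr, the lymphotoxin beta receptor, 1.82 FPKM. The exons of Tnfrsf18 share 27.2% of their bases with an antisense gene, and the library kit does not mark strand. Reads of Tnfrsf22, Tnfrsf23 and Tnfrsf26, which lie near each other and are close copies, may also have been shared, so their levels are uncertain.

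Genes averaging 1 FPKM or more were tested, and 28 of the 39 members did so, 10 ligands and 18 receptors. The other 6 ligands were Tnfsf13b (BAFF, highest value 1.35 FPKM), Tnfsf18 (GITRL, 1.09 FPKM), Cd40lg (CD40L, 0.972 FPKM), Tnfsf15 (TL1A, 0.943 FPKM), Tnfsf13 (APRIL, 0.7 FPKM) and Cd70 (0 in every library). The other 5 receptors were Cd40 (2.85 FPKM at most), Tnfrsf11b (osteoprotegerin, 1.10 FPKM), Tnfrsf13c (BAFF receptor, 1.10 FPKM), Tnfrsf17 (BCMA) and Tnfrsf19 (TROY), of which Tnfrsf17 and Tnfrsf19 were at 0 in every library. A listed 0 allows up to 3 fragments, which for Cd70 corresponds to 3.57 to 4.01 FPKM and for Tnfrsf19 to 0.607 to 0.681 FPKM; these limits cover counting error only.

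**Figure D1:**
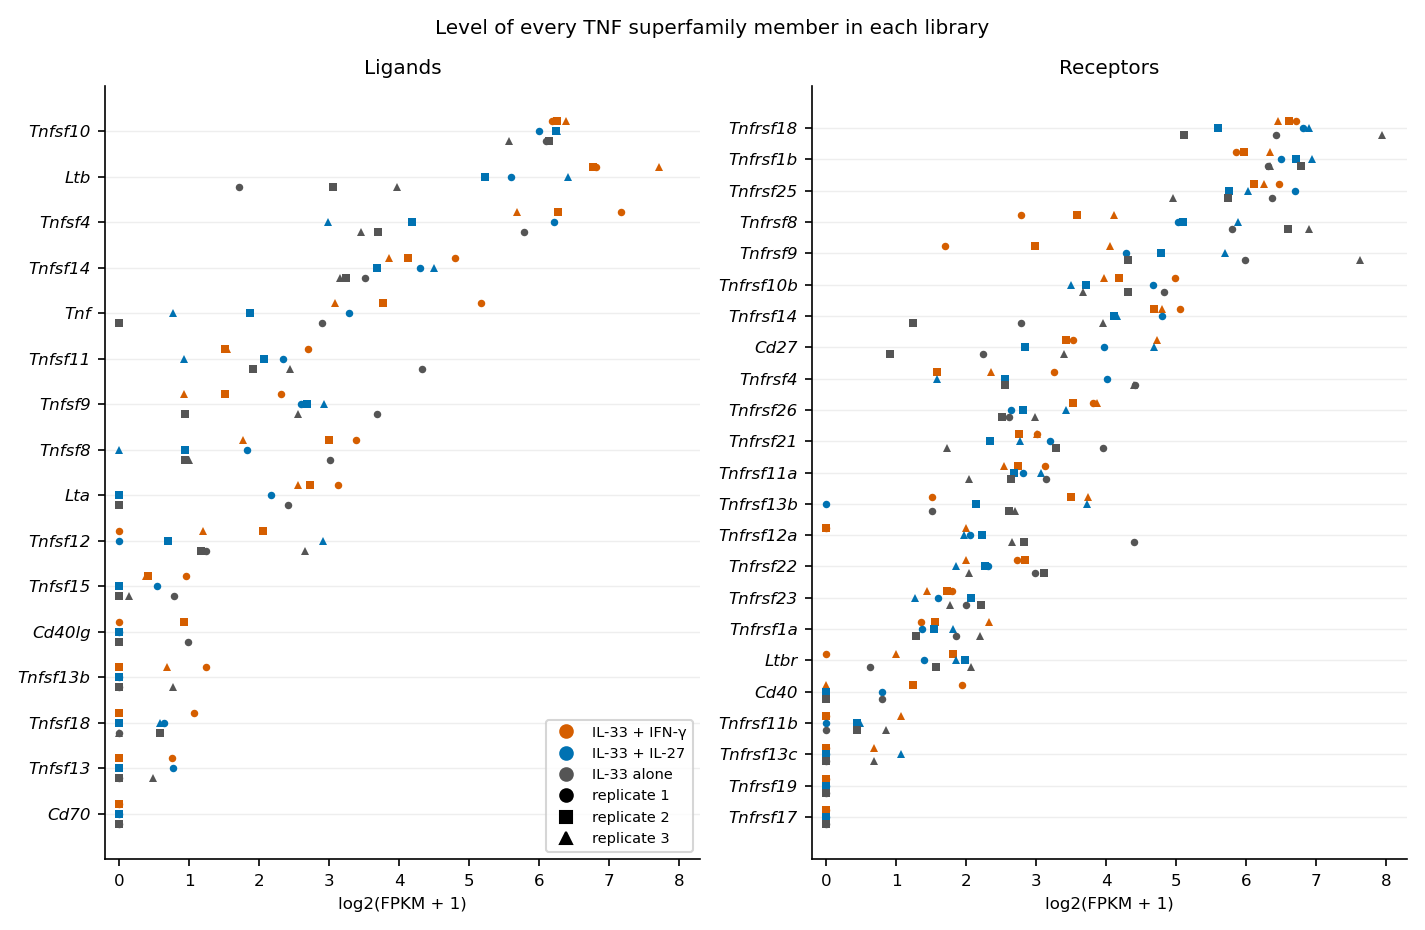
Level of each of the 39 members in each of the 9 libraries, as log2(FPKM + 1), with ligands on the left and receptors on the right, ordered by mean level. Colour gives the group and shape the replicate number. The plot shows Ltb libraries of the 3 groups separated from each other and Tnfrsf8 lowest in the 3 IFN-γ libraries, while Tnfsf10 keeps close values in all 9 libraries.

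With IFN-γ, the lymphotoxin gene Ltb rose and the CD30 gene Tnfrsf8 fell relative to IL-33 alone. Ltb was 18.2-fold higher and Tnfrsf8 was 7.68-fold lower on the log2(FPKM + 1) scale. They were the only members past the threshold (limma, adjusted p under 0.05), 2 of 28 (7.14%), where 2.91% of all 11014 genes tested passed. Changes are differences of group means of log2(FPKM + 1), each with its standard error (SE), and a second fit added the replicate number as a block. In this blocked fit 11 of the 28 members passed (39.3%), against 11.2% of all genes. The replicate numbers were taken to pair the libraries, so both values are given where they differ in call.

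Ltb had 111, 108 and 208 FPKM in the IFN-γ libraries, against 2.28, 7.31 and 14.6 FPKM in the IL-33 libraries. Every IFN-γ library lay above every IL-33 library, without overlap. The log2 fold change was 4.18 (SE 0.53, adjusted p = 0.00272 in limma). It passed with each of the 9 libraries left out in turn (adjusted p of at most 0.0178), and was 3.59 without the replicate 1 library of IL-33, where Ltb rested on about 3 fragments. In bulk RNA, more cells of a kind that expresses the gene and more transcript per cell cannot be told apart.

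Tnfrsf8 had 5.89, 11.0 and 16.3 FPKM in the IFN-γ libraries, against 54.9, 96.4 and 118 FPKM in the IL-33 libraries. The groups did not overlap, and the replicate 3 library was the highest of both. The log2 fold change was -2.94 (SE 0.40, adjusted p = 0.0037 in limma). It ranged between -3.26 and -2.59 with 1 library left out and passed each time (adjusted p of at most 0.0246). Tnfsf8, the gene for the CD30 ligand, had 9.48, 6.98 and 2.40 FPKM in the IFN-γ libraries, against 7.03, 0.920 and 1.00 FPKM in the IL-33 libraries, which overlapped (log2 fold change 1.07, SE 0.68, adjusted p = 0.521).

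The sequences before the start sites of Ltb and Tnfrsf8 are shown because these were the members past the threshold. They come from the RefSeq promoter table (GRCm38.p6) and were placed on mm9 by exact match. Ltb lies at chr17:35331384-35333265 on the plus strand and its printed stretch at chr17:35331202-35331383. Tnfrsf8 lies at chr4:144857040-144905067 on the minus strand and its stretch at chr4:144905068-144905317. Capitals mark matches to TTCNNNGAA, the form of an interferon gamma activated site (GAS), and to GGG, 5 bases of any kind and CC, a form of κB site, searched on both strands. For Ltb the bases inside annotated exons are left out, and with them 3 overlapping κB-form matches.
Ltb: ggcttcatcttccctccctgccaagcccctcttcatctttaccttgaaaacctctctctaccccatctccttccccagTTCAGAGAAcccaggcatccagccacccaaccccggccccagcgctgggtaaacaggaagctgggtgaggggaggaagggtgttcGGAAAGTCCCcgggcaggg
Tnfrsf8: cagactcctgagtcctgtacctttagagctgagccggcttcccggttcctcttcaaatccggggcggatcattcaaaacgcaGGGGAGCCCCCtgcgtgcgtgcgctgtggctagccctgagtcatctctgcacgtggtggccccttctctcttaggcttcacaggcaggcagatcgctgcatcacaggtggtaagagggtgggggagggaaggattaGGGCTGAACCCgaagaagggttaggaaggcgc
In Ltb, the GAS-form match spans bases 172 to 164 before the RefSeq start and a κB-form match bases 87 to 78. In Tnfrsf8, 4 κB-form matches overlap in pairs, at bases 168 to 158 and 32 to 22 before the start, and none of the GAS form was found. The GAS form was found in 7.02% of all 32851 promoters of the table within 250 bases of the start, and in 7 of the 33 promoters of the 29 members with an entry. These 7 were promoters of Ltb, Lta, Tnfrsf1a, Tnfrsf1b, Tnfrsf9, Tnfrsf18 and Tnfrsf25. With IFN-γ only Ltb of these passed without the block, and with the block Lta (higher) and Tnfrsf9 (lower) also passed. The κB form was found in 45.8% of all promoters and in 20 of the 33. The third motif searched, GAAA, 2 bases of any kind and GAAA, the form of an interferon-stimulated response element, was in 2.98% of all promoters and in 4 of the 33. The 4 were promoters of Tnfrsf14, Tnfrsf1b, Tnfsf13b and Tnfrsf17. Of these genes, Tnfrsf14 passed with the block alone (higher with IFN-γ), Tnfrsf1b passed in neither fit, and Tnfsf13b and Tnfrsf17 were not tested. A match is a description of the letters and not a site.

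Among the other ligands, 4 passed in the blocked fit alone, all with higher values in IFN-γ libraries, which with Ltb made 5 of 10 ligands higher and none lower, where 6.51% of all genes were higher and 4.66% lower by the blocked fit. When all replicate 3 libraries were left out of that fit, Ltb was the only 1 of 10 ligands to pass (10.0%, beside 2.74% of all genes). Tnf, the inflammatory cytokine that binds TNFR1 and TNFR2, had 35.0, 12.7 and 7.50 FPKM in the IFN-γ libraries, against 6.47, 0 and 0 FPKM in the IL-33 libraries (3 fragments correspond to 1.84 to 2.06 FPKM). The groups did not overlap, and replicate 1 was the highest library of each. The gap was narrow, at about 12 fragments in the lowest IFN-γ library and about 10 in the highest IL-33 library. The log2 fold change was 3.04 (SE 0.90, adjusted p = 0.127, and 0.00151 in the blocked fit), and it was 4.01 (adjusted p = 0.0483) without the replicate 1 library of IL-33. Lta had 7.71, 5.59 and 4.90 FPKM in the IFN-γ libraries, against 4.31, 0 and 0 FPKM in the IL-33 libraries. For this low gene 3 fragments correspond to 2.18 to 2.44 FPKM. Its groups did not overlap, but only by about 6 fragments in the lowest IFN-γ library against about 5 in the highest IL-33 library. The log2 fold change was 2.00 (SE 0.75, adjusted p = 0.239, and 0.0285 in the blocked fit).

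Tnfsf4 had 143, 76.4 and 50.4 FPKM in the IFN-γ libraries, against 54.3, 11.9 and 10.0 FPKM in the IL-33 libraries. Within each replicate number the IFN-γ library was higher, but the groups overlapped, because replicate 1 was high in both. The log2 fold change was 2.06 (SE 0.83, adjusted p = 0.268, and 0.00606 in the blocked fit). Tnfsf14 had 26.9, 16.5 and 13.5 FPKM in the IFN-γ libraries, against 10.5, 8.45 and 7.90 FPKM in the IL-33 libraries, with a log2 fold change of 0.96 (SE 0.30, adjusted p = 0.151, and 0.0445 in the blocked fit). Its groups did not overlap. Without the replicate 1 library of IL-33 the change was 2.80 for both Lta and Tnfsf4.

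The remaining ligands passed in neither fit. Tnfsf10 was close to level, with 71.95, 75.1 and 82.5 FPKM in the IFN-γ libraries, against 67.2, 69.9 and 46.5 FPKM in the IL-33 libraries, which lay just below (log2 fold change 0.34, 95% interval -0.09 to 0.76). Tnfsf11 had 5.47, 1.85 and 1.90 FPKM in the IFN-γ libraries, against 19.0, 2.75 and 4.40 FPKM in the IL-33 libraries, the first of which stood far above the rest (log2 fold change -0.97, SE 0.64, adjusted p = 0.528). Tnfsf9 and Tnfsf12 also had negative changes, -0.82 and -0.60, with overlapping groups. Over the 10 ligands the median log2 fold change was 1.01, beside 0.03 over all genes tested.

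Receptors moved in both directions. In the blocked fit 6 of 18 passed, 3 of them higher and 3 lower in IFN-γ libraries, where 11.2% of all genes passed, 6.51% higher and 4.66% lower. The median change over the 18 was -0.05. Tnfrsf9, whose product 4-1BB is a costimulatory receptor, had 2.25, 6.90 and 15.7 FPKM in the IFN-γ libraries, against 62.3, 18.9 and 198 FPKM in the IL-33 libraries. The groups did not overlap (log2 fold change -3.06, SE 0.81, adjusted p = 0.0874, and 0.00982 in the blocked fit). The value of 198 FPKM came from the library with high Fos and Egr1, and without it the change was -2.23. The change was -2.45 without the replicate 1 library of IFN-γ, and -3.89 without the replicate 2 library of IL-33, where it passed unblocked (adjusted p = 0.044 in limma).

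Tnfrsf12a, the gene for the TWEAK receptor Fn14, had 0, 0 and 3.00 FPKM in the IFN-γ libraries, against 20.2, 6.12 and 5.30 FPKM in the IL-33 libraries. These values rest on 17 fragments or fewer, and 3 fragments correspond to 3.12 to 3.51 FPKM. The groups did not overlap, with a log2 fold change of -2.63 (SE 0.61, adjusted p = 0.0515, and 0.0375 in the blocked fit). It passed without the replicate 3 library of IFN-γ (-3.30, adjusted p = 0.0174). An 8.1% share of its exonic bases overlaps Hcfc1r1 on the opposite strand.

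The 3 receptors that were higher with IFN-γ in the blocked fit were Tnfrsf14, Cd27 and Tnfrsf26. Tnfrsf14, the gene for HVEM, a receptor of LIGHT, had 32.3, 24.6 and 26.7 FPKM in the IFN-γ libraries, against 5.90, 1.35 and 14.5 FPKM in the IL-33 libraries. The groups did not overlap, and the IFN-γ libraries lay close together (log2 fold change 2.18, SE 0.55, adjusted p = 0.0736, and 0.0265 in the blocked fit). The IL-33 values rest on about 6, 2 and 15 fragments, and 3 fragments correspond to 2.60 to 2.92 FPKM. Without the replicate 3 library of IL-33 it passed unblocked (2.83, adjusted p = 0.0129), and without the replicate 2 library the change was 1.47.

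Cd27, a costimulatory receptor of lymphocytes, had 10.5, 9.79 and 25.6 FPKM in the IFN-γ libraries, against 3.71, 0.878 and 9.5 FPKM in the IL-33 libraries. All 3 IFN-γ libraries were higher, 2 of them only just above the highest IL-33 library (log2 fold change 1.72, SE 0.66, adjusted p = 0.246, and 0.00763 in the blocked fit). The change was 1.083 without the replicate 2 library of IL-33 and 2.32 without its replicate 3 library. Tnfrsf26, a mouse receptor homologue, had 13.1, 10.5 and 13.6 FPKM in the IFN-γ libraries, against 5.13, 4.70 and 6.90 FPKM in the IL-33 libraries, with no overlap (log2 fold change 1.03, SE 0.27, adjusted p = 0.0767, and 0.0163 in the blocked fit).

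The abundant receptors Tnfrsf18, Tnfrsf1b and Tnfrsf25 passed in neither fit. Tnfrsf18 had 104, 97.3 and 87.2 FPKM in the IFN-γ libraries, against 84.9, 33.6 and 245 FPKM in the IL-33 libraries, which spanned the IFN-γ values on both sides (log2 fold change 0.11, 95% interval -1.24 to 1.46). The value of 245 FPKM came from the library with high Fos and Egr1, and without that library the change was 0.83. It was -0.58 without the replicate 2 library of IL-33, so its sign depended on 1 library. Tnfrsf1b had 56.6, 61.9 and 80.4 FPKM in the IFN-γ libraries, against 78.6, 109 and 80.2 FPKM in the IL-33 libraries (log2 fold change -0.42, 95% interval -0.89 to 0.04). Tnfrsf25 had 87.4, 68.0 and 75.6 FPKM in the IFN-γ libraries, against 82.1, 52.6 and 30.1 FPKM in the IL-33 libraries (log2 fold change 0.58, 95% interval -0.20 to 1.37). For these 3 the groups overlapped, and the interval for Tnfrsf18 leaves room for changes of more than 2-fold in either direction.

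Tnfrsf4, the gene for OX40, had 8.50, 1.98 and 4.10 FPKM in the IFN-γ libraries, against 20.3, 4.89 and 20.0 FPKM in the IL-33 libraries. It was lower in all 3 replicate pairs, but the groups overlapped (log2 fold change -1.40, SE 0.70, adjusted p = 0.387). The change was -2.01 without the replicate 2 library of IL-33. The 8 other tested receptors, Tnfrsf10b, Tnfrsf11a, Tnfrsf13b, Tnfrsf1a, Tnfrsf21, Tnfrsf22, Tnfrsf23 and Ltbr, had changes between -0.49 and 0.64, all with overlapping groups. When all replicate 3 libraries were left out of the blocked fit, 4 members passed (Ltb, Tnfrsf8, Tnfrsf12a and Tnfrsf14), 14.3% of 28, where 2.74% of all genes passed.

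**Figure D2:**
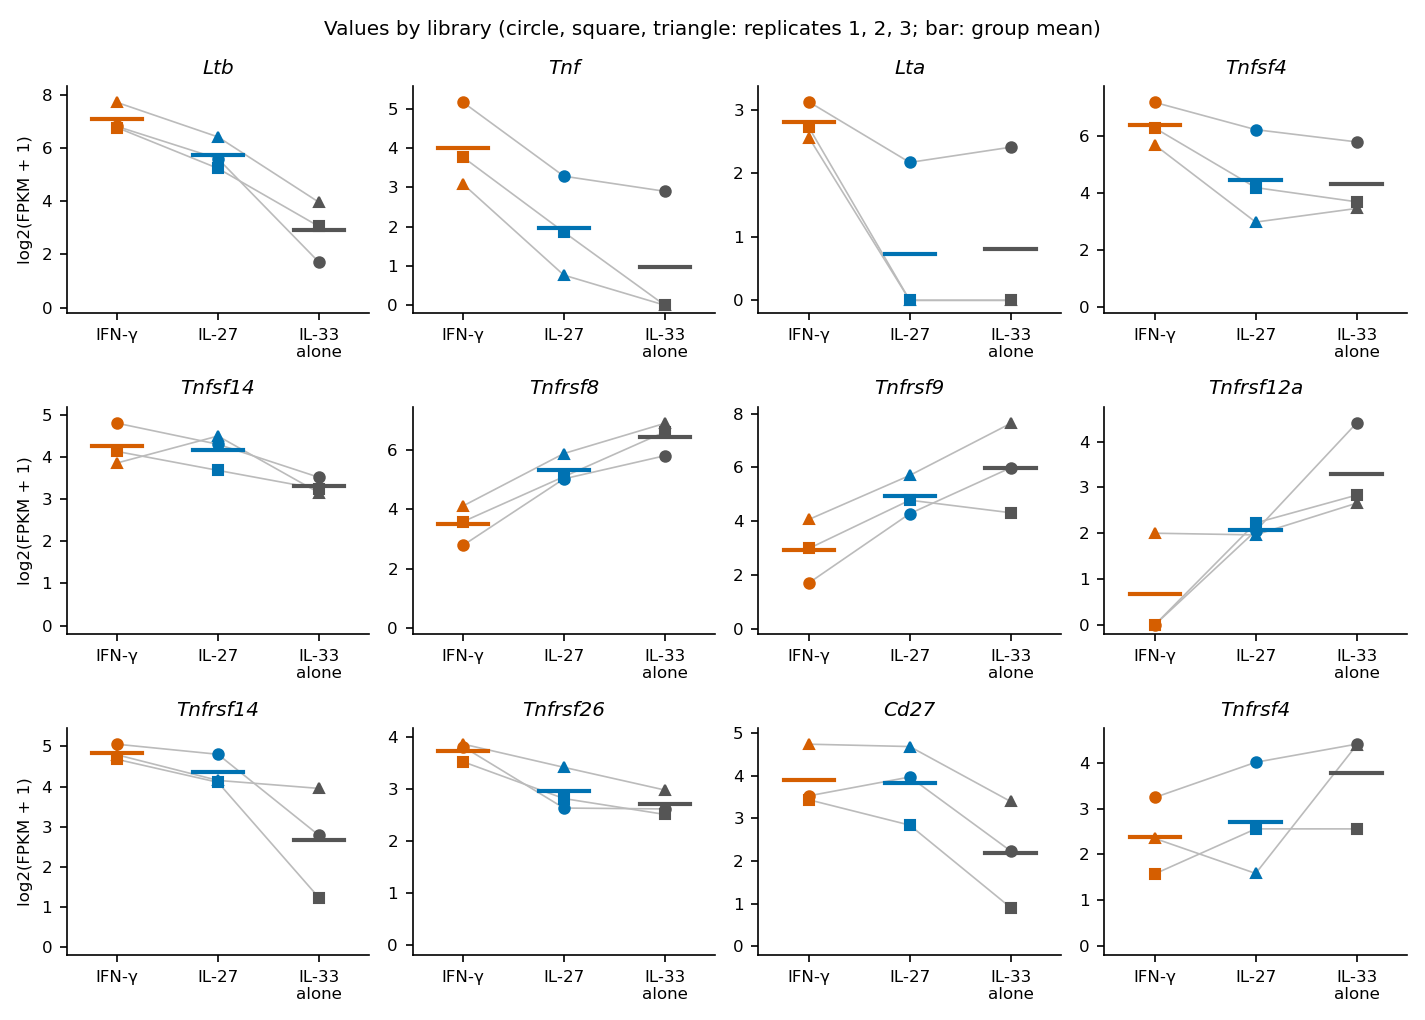
Values of 12 members by library, as log2(FPKM + 1), with lines joining libraries of the same replicate number and bars at group means. In each panel IFN-γ is on the left, IL-27 in the middle and IL-33 alone on the right, and in every replicate number Ltb is highest and Tnfrsf8 lowest with IFN-γ, with IL-27 in between.

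With IL-27, Ltb rose and no other member passed the threshold. This made 1 of 28 members (3.57%), where 1.03% of all genes passed, and the receptors held none. Ltb had 47.5, 36.6 and 84.3 FPKM in the IL-27 libraries, against 2.28, 7.31 and 14.6 FPKM in the IL-33 libraries, with no overlap. The log2 fold change was 2.84 (SE 0.53, adjusted p = 0.0409, and 0.00261 in the blocked fit), which is 7.15-fold. The adjusted p lay just under the threshold: it was 0.054 to 0.171 with any library left out except the replicate 3 library of IL-33, without which it was 0.0182, and the change was 2.24 without the replicate 1 library of IL-33.

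In the blocked fit 3 of 28 members passed with IL-27 (10.7%), against 5.15% of all genes. Besides Ltb these were Tnfrsf8 and Cd27. Tnfrsf8 had 31.6, 33.3 and 57.9 FPKM in the IL-27 libraries, against 54.9, 96.4 and 118 FPKM in the IL-33 libraries. It was lower in all 3 replicate pairs, and the groups overlapped only through the replicate 3 library of IL-27 and the replicate 1 library of IL-33 (log2 fold change -1.10, SE 0.40, adjusted p = 0.37, and 0.0102 in the blocked fit). Cd27 had 14.6, 6.16 and 24.6 FPKM in the IL-27 libraries, against 3.71, 0.878 and 9.5 FPKM in the IL-33 libraries (log2 fold change 1.65, SE 0.66, adjusted p = 0.444, and 0.0143 in the blocked fit). It was higher in all 3 pairs, with overlapping groups. Without the replicate 3 libraries the blocked fit called none of the 28 members and 0.872% of all genes. In that fit 9 of the 28 members had an unadjusted p under 0.05, as had 1704 of all 11014 genes.

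The ligands that were higher with IFN-γ in the blocked fit had these values with IL-27, beside the same IL-33 libraries. Tnf had 8.75, 2.64 and 0.7 FPKM in the IL-27 libraries and a log2 fold change of 1.00 (95% interval -1.0 to 3.01). Lta had 3.50, 0 and 0 FPKM and a change of -0.08 (95% interval -1.77 to 1.61). Tnfsf4 had 73.4, 17.2 and 6.90 FPKM and a change of 0.15 (95% interval -1.71 to 2.00). All 3 overlapped the IL-33 libraries. Tnfsf14 had 18.7, 11.8 and 21.6 FPKM with no overlap (log2 fold change 0.86, SE 0.30, adjusted p = 0.346).

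Among receptors, Tnfrsf14 had 26.95, 16.2 and 16.8 FPKM in the IL-27 libraries, all above the IL-33 libraries (log2 fold change 1.70, SE 0.55, adjusted p = 0.303). It passed without the replicate 3 library of IL-33 (2.35, adjusted p = 0.048), and the change was 0.98 without the replicate 2 library. Tnfrsf9 had 18.4, 26.4 and 51.0 FPKM and Tnfrsf12a 3.14, 3.67 and 2.90 FPKM, with changes of -1.06 and -1.22 and adjusted p of 0.765 and 0.586 in limma. Tnfrsf1b had 89.1, 104 and 122 FPKM (log2 fold change 0.23, 95% interval -0.23 to 0.70), and Tnfrsf4 had 15.2, 4.90 and 2.00 FPKM (log2 fold change -1.07, SE 0.70, adjusted p = 0.711). The median change was 0.19 over the 10 ligands and -0.21 over the 18 receptors, beside 0.01 over all genes tested.

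**Figure D3:**
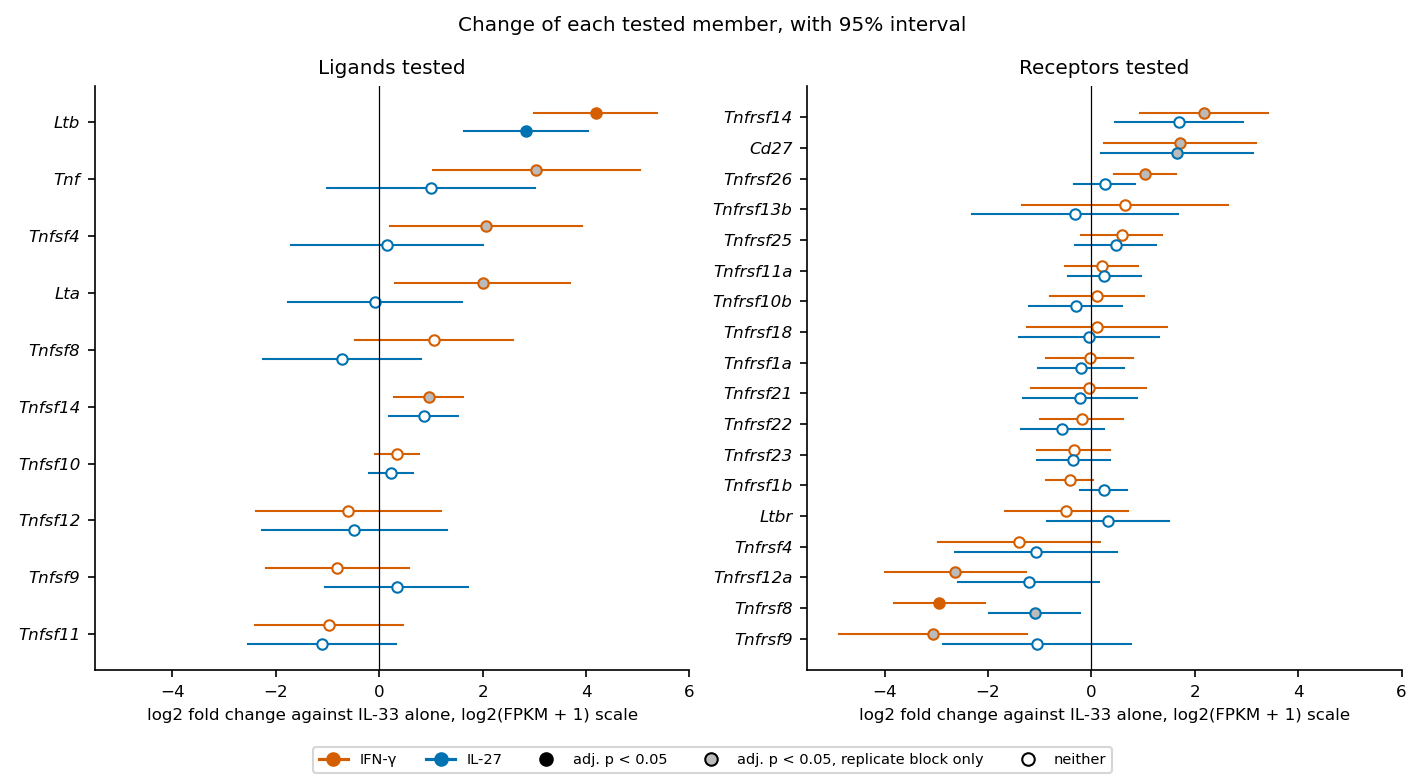
Log2 fold change against IL-33 alone with its 95% interval for the 10 tested ligands (left) and the 18 tested receptors (right), on the log2(FPKM + 1) scale, IFN-γ above IL-27. Filled points passed at an adjusted p under 0.05 (Ltb with both cytokines, Tnfrsf8 with IFN-γ) and grey points passed with the replicate block alone; both comparisons use the same IL-33 libraries.

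Set directly against IL-27, IFN-γ left no member past the threshold. Limma called 0 of 28 members and 0 of 11014 genes (0.0%), while 10 members and 483 genes had an unadjusted p under 0.05. Those members were Tnfrsf8, Tnfrsf1b, Tnfrsf26, Lta, Tnfsf8, Ltb, Tnfrsf9, Tnfrsf12a, Tnfsf4 and Tnf. With the block, Tnfrsf8 passed as the only member, where 0.182% of all genes passed. Its 5.89, 11.0 and 16.3 FPKM in IFN-γ libraries lay below the 31.6, 33.3 and 57.9 FPKM in IL-27 libraries (log2 fold change -1.84, SE 0.40, adjusted p = 0.439, and 0.0247 in the blocked fit).

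Ltb was higher in IFN-γ than in IL-27 libraries in all 3 pairs, with a log2 fold change of 1.35 (95% interval 0.16 to 2.54) that did not pass (adjusted p = 1.00 in limma, and 0.172 in the blocked fit). Tnfrsf1b had 56.6, 61.9 and 80.4 FPKM in IFN-γ libraries, against 89.1, 104 and 122 FPKM in IL-27 libraries, without overlap (log2 fold change -0.66, SE 0.21, unadjusted p = 0.0101 and adjusted p = 1.00 in limma). Tnf and Tnfsf4 differed by 2.04 (95% interval 0.03 to 4.04) and 1.91 (95% interval 0.06 to 3.77), with overlapping groups. A difference between the effects of IFN-γ and IL-27 was therefore past the threshold for no member but Tnfrsf8, and for that one with the block alone. Without the replicate 3 libraries the blocked fit did not call it (log2 fold change -1.88, adjusted p = 0.334).

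Ligands and receptors summed differently. The 16 ligands summed to 419, 309 and 376 FPKM in IFN-γ libraries, to 228, 153 and 203 FPKM in IL-27 libraries and to 186, 104 and 95.8 FPKM in IL-33 libraries. The IFN-γ libraries lay above all others, and the IL-27 and IL-33 libraries overlapped. Ltb alone held 111, 108 and 208 FPKM of the IFN-γ sums. It held 47.5, 36.6 and 84.3 FPKM of the IL-27 sums and 2.28, 7.31 and 14.6 FPKM of the IL-33 sums. Without Ltb, the ligand sums of the IFN-γ libraries overlap those of both other groups. The 23 receptors summed to 381, 345 and 399 FPKM in IFN-γ libraries, to 468, 339 and 516 FPKM in IL-27 libraries and to 483, 381 and 763 FPKM in IL-33 libraries, and these ranges overlapped.

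The ratio of the ligand sum to the receptor sum was 1.10, 0.896 and 0.942 in IFN-γ libraries, 0.487, 0.452 and 0.394 in IL-27 libraries and 0.385, 0.273 and 0.126 in IL-33 libraries. No value was shared between groups, the IFN-γ libraries being the highest. This separation rests in part on Ltb. Without Ltb in the ligand sum, the ratios of the IL-27 and IL-33 libraries overlap, and those of the IFN-γ libraries remain the highest. Members are not replicates of each other, so sums and ratios are descriptions without a test. Beyond Tnfsf10, Ltb and Tnfsf4 made up most of the ligand sum in the IFN-γ libraries.

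**Figure D4:**
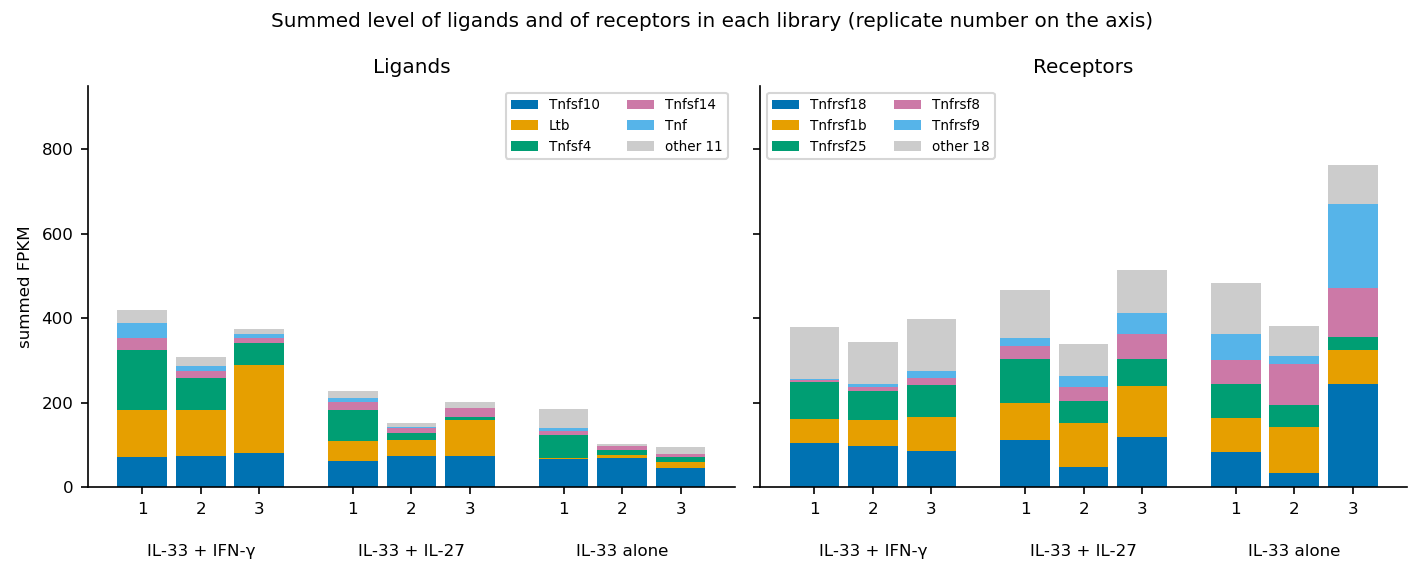
Summed FPKM of the 16 ligands (left) and the 23 receptors (right) in each library, stacked by the 5 most abundant members of each class, with the replicate number below each bar. Ligand bars reach 309 to 419 FPKM with IFN-γ, 153 to 228 FPKM with IL-27 and 95.8 to 186 FPKM with IL-33 alone, while receptor bars overlap between the groups.

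Of 24 known ligand and receptor pairs, 14 had both partners at a mean of at least 1 FPKM. In several pairs the partners differed widely in level. Lymphotoxin beta had a mean of 68.9 FPKM beside 1.82 FPKM for its receptor Ltbr, and Tnfsf10 had 69.6 FPKM beside 18.6 FPKM for the TRAIL receptor Tnfrsf10b. The reverse held for Tnf beside Tnfrsf1b (8.19 and 86.8 FPKM), Tnfsf8 beside Tnfrsf8 (3.48 and 47.3 FPKM) and Tnfsf9 beside Tnfrsf9 (4.61 and 44.4 FPKM). These are means over the 9 libraries, and the gap was smaller with IFN-γ for the last 2 pairs. There Tnfsf8 averaged 6.29 FPKM beside 11.06 FPKM for Tnfrsf8, and Tnfsf9 2.225 FPKM beside 8.28 FPKM for Tnfrsf9. In the replicate 1 library of IFN-γ the ligand was higher in both (9.48 beside 5.89 FPKM, and 3.94 beside 2.25 FPKM). For 2 of the 3 most abundant receptors the ligand was under a mean of 1 FPKM. Tnfsf18, the ligand of GITR, averaged 0.293 FPKM beside 103 FPKM for Tnfrsf18, and Tnfsf15, the ligand of DR3, averaged 0.318 FPKM beside 68.5 FPKM for Tnfrsf25.

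For OX40 and its ligand, IFN-γ was accompanied by opposite signs: 2.06 for Tnfsf4 and -1.40 for Tnfrsf4 on the log2 scale, the first past the threshold with the block alone and the second in neither fit. LIGHT and its receptor HVEM had the same sign, with 0.96 for Tnfsf14 and 2.18 for Tnfrsf14, both past the threshold with the block alone. RANKL and its receptor RANK passed in neither fit, with -0.97 for Tnfsf11 and 0.20 for Tnfrsf11a. The pair of TWEAK and Fn14 had -0.60 for Tnfsf12 and -2.63 for Tnfrsf12a.

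Several members lie next to each other in the genome (mm9, GENCODE vM1). Ltb, Tnf and Lta follow each other on chromosome 17, with gaps of 3060 and 1157 bases, and their changes with IFN-γ were 4.18, 3.04 and 2.00 in that order. With IL-27 they were 2.84, 1.00 and -0.08. On chromosome 4, Tnfrsf8 lies 20266 bases from Tnfrsf1b, and their changes with IFN-γ were -2.94 and -0.42. Tnfrsf4 and Tnfrsf18, 9551 bases apart on the same chromosome, had -1.40 and 0.11. No test of position was made.

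Members also varied with the replicate number. Replicate 1 was the highest library in all 3 groups for 8 of the 28 tested members (28.6%), where 10.9% of all genes showed this. The 8 were Tnf, Lta, Tnfsf4, Tnfsf8, Tnfsf11, Tnfrsf4, Tnfrsf10b and Tnfrsf25. Replicate 3 was the highest in all 3 groups for 7 members (25.0%, and 15.8% of all genes), namely Ltb, Cd27, Tnfrsf8, Tnfrsf9, Tnfrsf26, Tnfrsf1a and Tnfrsf13b. The summed level of the fibroblast list was also higher in the replicate 3 libraries, though not that of every gene on it (Lum was lower there than in replicate 1), and its part in these 7 was not tested. Replicate 2 was the highest in all 3 groups for none of the members and for 9.23% of all genes.

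Genes of the pathway were described from 7 lists of 56 genes, of which 52 were tested. Besides genes below the receptors, the lists held shedding proteases and superfamily members under other symbols. With IFN-γ, 4 of the 52 rose (7.69%, beside 2.91% of all genes) and none fell. In the blocked fit 7 were higher and 1 was lower, 15.4% of the 52, beside 11.2% of all genes (6.51% higher and 4.66% lower). The median change of the 52 was 0.16. Fas, a death receptor of the same superfamily under another symbol, rose to 29.0 ± 8.38 FPKM in IFN-γ libraries, against 6.43 ± 2.12 FPKM in IL-33 libraries (SD, n = 3 each; log2 fold change 2.01, adjusted p = 0.00409 in limma). Its ligand gene Fasl was at 0 in every library. Relb, the NF-κB subunit of the noncanonical route, rose to 36.6 ± 1.52 FPKM in IFN-γ libraries, against 18.4 ± 2.15 FPKM in IL-33 libraries (log2 fold change 0.96, adjusted p = 0.0172 in limma).

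Nfkbie, an inhibitor of NF-κB, rose with a log2 fold change of 1.45 (adjusted p = 0.024 in limma), and Cyld, a deubiquitinase that restrains the pathway, with 0.98 (adjusted p = 0.0396). Of the 4, Fas passed with any library left out, whereas the other 3 did not: the highest adjusted p was 0.0746 for Relb, 0.0976 for Nfkbie and 0.132 for Cyld. Tnfaip3, named after its values were seen, encodes the ubiquitin-editing enzyme A20 and had 76.0 ± 15.0 FPKM in IFN-γ libraries, against 35.3 ± 13.7 FPKM in IL-33 libraries (SD, n = 3 each; log2 fold change 1.14, adjusted p = 0.0765 in limma, and 0.00322 in the blocked fit). None of the 7 TRAF adaptors, the 12 kinases or the 4 shedding proteases passed in either fit.

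With IL-27, Relb was the only pathway gene past the threshold (1.92% of 52, beside 1.03% of all genes), at 36.1 ± 4.72 FPKM in IL-27 libraries, against 18.4 ± 2.15 FPKM in IL-33 libraries (SD, n = 3 each; log2 fold change 0.94, adjusted p = 0.0395 in limma). It lost the call when any library other than the replicate 3 library of IL-33 was left out (adjusted p of at most 0.148). In the blocked fit 8 of the 52 were higher (3.37% of all genes) and 1, Rel, was lower (1.78% of all genes). IFN-γ against IL-27 left none of the 52 past the threshold in limma with or without the block. Without the block, 4 of the 52 had an unadjusted p under 0.05, as had 483 of all 11014 genes. With it, 6 of the 52 and 1254 of all 11014 genes did.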

How the data were processed

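RNA sequencing covered 9 libraries of mouse ILC2s, 3 per group as the labels give them. The library kit was TruSeq RNA v2, per the labels' protocols. Per the submitters' processing notes, the authors used Bowtie2 2.1.0, TopHat2 2.0.8 and Cufflinks 2.1.1 on mouse build mm9; the gene annotation is not given in the sources used here. The deposited tables hold 1 value per gene, taken as FPKM because Cufflinks is named and values are decimal, never negative and of unequal sums; the unit is not written in them. The replicate 3 tables round to 1 decimal. Coordinates come from GENCODE vM1 (mm9), in which 21640 symbols (93.1%) had a single match; Tnfrsf22 had several and has none here.

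Values were analysed as log2(FPKM + 1), which understates changes of low genes. The 11014 genes averaging 1 FPKM or more were fitted with limma 3.58.1 in R 4.3.3 (lmFit, contrasts.fit and eBayes with a trend, two-sided), 3 groups together without a covariate, and p-values were adjusted by Benjamini-Hochberg over all genes in each of the 3 comparisons, with 0.05 as the threshold. The comparisons with IL-33 alone share its libraries. Tables and figures used Python 3.11.15, pandas 2.3.3, numpy 2.4.6 and matplotlib 3.10.9. Depth was estimated from steps between low FPKM values, with gene lengths that may not be the authors'. Tested on simulated data for IFN-γ against IL-33, the fit without the block called 81% of genes changed by 2 on the log2 scale and 23% of those changed by 1. The simulated libraries had independent noise and no replicate effect, so these shares do not describe paired libraries or the blocked fit.

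The labels number replicates without saying what a number shares. Deviations from group means correlated at 0.128 to 0.367 in the 9 pairs with the same number and at -0.298 to -0.0251 in the 18 other pairs. Deviations within a group cancel out, so positive values in the former force negative ones on average in the latter, which are not separate evidence. The numbers were taken to pair libraries, from the data alone, and a fit blocked on the number is given where it changes a call. The blocked fit without replicate 3 libraries was chosen after seeing the data. The members, pathway and marker lists were chosen with earlier results of these data known. Named in full were members past the threshold, the markers Tnfrsf8, Ltb, Tnfrsf4 and Tnfsf11, the 5 most abundant ligands and receptors, pairs with both partners expressed, and members past the threshold with the block. Alternatives covered the pseudocount, filter, scaling, variance trend, groups in the fit, the block and left-out libraries.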

Additional observations from a re-analysis of the deposited data

How the results depend on the processing

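The changes of Ltb and Tnfrsf8 with IFN-γ passed under every alternative run; no called value changed sign. With the replicate block, IFN-γ against IL-33 gave 1230 genes in place of 320, 11 members, 5 ligands, 6 receptors and 8 pathway genes; IL-27 against IL-33 gave 567 genes in place of 113, 3 members, 2 receptors and 9 pathway genes; IFN-γ against IL-27 gave 20 genes, 1 member and 1 receptor. Where the block changed a member's call, its value stands beside the result, and it changed the call of no other member. The block without replicate 3 libraries gave 4 members, 3 receptors and 2 pathway genes with IFN-γ, 0 members, ligands and pathway genes with IL-27, and 2 genes in the direct comparison. Leaving out all replicate 3 libraries gave 125 genes and 0 pathway genes with IFN-γ, 53 genes and 0 members, ligands and pathway genes with IL-27, and 2 genes between them. Fitting 2 groups alone gave 187 genes and 2 pathway genes with IFN-γ, and 63 genes and 0 members, ligands and pathway genes with IL-27. With no variance trend, IL-27 called 0 members, ligands and pathway genes, and with no filter 0 members and ligands; both settings called 2 genes between IFN-γ and IL-27. TPM and quantile scaling each gave 2 receptors with IFN-γ (Tnfrsf12a added). Without 1 library, IFN-γ gave 157 to 299 genes, 2 to 3 members, 1 to 2 ligands, 1 to 2 receptors and 1 to 4 pathway genes. IL-27 gave 42 to 122 genes, 0 to 2 members, 0 to 1 ligands, receptors and pathway genes, and the direct comparison 0 to 2 genes. Scaled to TPM without small RNAs, which took 3.45% to 17.9% of FPKM, ligands summed to 617, 334 and 231 and receptors to 626, 754 and 959 in IFN-γ, IL-27 and IL-33 libraries, and the order of groups was kept. Low members such as Lta, Tnf and Tnfrsf12a rest on few fragments, which limits their precision.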
